A study of Mus musculus with 24 samples.

Results

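The hypoxia-responsive genes and regulators of hypoxia-inducible factor (HIF) are 10 genes of the cellular answer to low oxygen, taken by name from a count table of 25229 gene symbols. They are the HIF alpha subunit genes Hif1a, Epas1 and Hif3a, the prolyl hydroxylase genes Egln1 and Egln3, and the response genes Bnip3, Bnip3l, Adm, Ankrd37 and Ndrg1. Their levels came from poly-A RNA of hearts (left ventricle with septum) from C57BL/6 males, in a study of chronic benzene inhalation and pressure overload of the heart. Every mouse had surgery, either transverse aortic constriction (TAC), in which a band around the aorta makes the left ventricle pump against high pressure, or a sham operation. After a recovery of 1 week the mice breathed HEPA-filtered air or benzene at 50 ppm for 6 hours a day on 5 days a week, for 6 weeks. The 4 groups of 6 libraries were Sham/Air, Sham/Benzene, TAC/Air and TAC/Benzene, and the age of the mice is not given in the sources used here. No label ties a library to a mouse, and the p-values therefore cover only how these samples vary among themselves. Levels below are CPM, the count of a gene scaled to the size of its library, differences are log2 fold changes ± SE, and a gene was called at an adjusted p under 0.05 in the quasi-likelihood test of edgeR, with Benjamini-Hochberg adjustment over 13571 genes. All 10 genes passed the filter on low counts and were tested.

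HIF is a transcription factor made of an oxygen-sensitive alpha subunit and the stable partner ARNT. When oxygen is plentiful, prolyl hydroxylases of the EGLN family mark the alpha subunit, the von Hippel-Lindau protein binds the mark, and the subunit is degraded. When oxygen is short, the alpha subunit escapes this mark and the factor turns on genes for glycolysis, blood vessel growth, matrix crosslinking and mitochondrial turnover. Because the control acts on protein, mRNA of the alpha subunits does not report HIF activity, while mRNA of its target genes is the usual readout. Egln3, Bnip3, Adm, Ankrd37 and Ndrg1 are classical targets, and induction of Egln3 by HIF is known as a feedback that marks the factor for degradation.

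HIF binds DNA at a core of 5 letters, ACGTG or GCGTG, so the promoters of 4 of the genes are shown, those of Bnip3 and Egln3, which were highest in TAC/Benzene, of Egln1, which was lower after TAC, and of Ankrd37, which was not called in any comparison. The sequences are the 250 bases before the annotated start of each gene in RefSeq on build GRCm38.p6, read 5′ to 3′ along the gene, and capitals mark ACGTG or GCGTG on either strand, CACGTG counting once per strand. The Bnip3 promoter lies at chr7:138909507-138909756, the Egln3 promoter at chr12:54203875-54204124, the Egln1 promoter at chr8:124949255-124949504 and the Ankrd37 promoter at chr8:45999851-46000100, all on the minus strand.
Bnip3: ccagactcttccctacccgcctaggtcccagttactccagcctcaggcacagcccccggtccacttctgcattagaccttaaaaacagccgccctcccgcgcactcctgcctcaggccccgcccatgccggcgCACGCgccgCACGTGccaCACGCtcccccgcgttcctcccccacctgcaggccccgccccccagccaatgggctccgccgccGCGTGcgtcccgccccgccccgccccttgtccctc
Egln3: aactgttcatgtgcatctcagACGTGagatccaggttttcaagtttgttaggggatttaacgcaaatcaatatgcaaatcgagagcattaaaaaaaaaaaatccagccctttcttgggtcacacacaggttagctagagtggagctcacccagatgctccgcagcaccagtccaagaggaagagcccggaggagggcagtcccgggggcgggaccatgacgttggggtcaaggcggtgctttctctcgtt
Egln1: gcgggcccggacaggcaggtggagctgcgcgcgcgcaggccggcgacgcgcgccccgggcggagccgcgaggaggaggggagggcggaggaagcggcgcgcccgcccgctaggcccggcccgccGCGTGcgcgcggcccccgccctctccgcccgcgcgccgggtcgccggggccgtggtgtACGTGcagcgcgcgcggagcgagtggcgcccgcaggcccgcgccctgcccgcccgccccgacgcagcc
Ankrd37: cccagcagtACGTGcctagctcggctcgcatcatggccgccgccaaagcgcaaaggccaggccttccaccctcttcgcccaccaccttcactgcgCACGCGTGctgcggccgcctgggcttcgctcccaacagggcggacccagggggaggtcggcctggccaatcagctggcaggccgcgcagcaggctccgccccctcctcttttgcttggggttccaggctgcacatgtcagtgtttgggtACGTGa
The Bnip3 window held 2 matches to ACGTG and 3 to GCGTG, the Egln3 window 1 match to ACGTG, the Egln1 window 1 of each, and the Ankrd37 window 2 of each. RefSeq promoters were matched for 7 of the 10 genes, and each of the 7 windows held at least 1 match, against 38.6% of all 27025 promoters of the same length. ACGTG alone was in 16.6% of all promoters and GCGTG alone in 28.2%. Both cores contain the letters CG, and the promoters compared were not matched for CG content. CG occurred 51 times in the Egln1 window, 24 in that of Bnip3, 19 in that of Ankrd37 and 10 in that of Egln3. These counts describe letters, and their relation to the changes below was not tested. The Bnip3 window held 5 matches, the Ankrd37 window 4, the Egln1 window 2 and the Egln3 window 1.

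Total counts ran from 4170660 to 14632231 per library. The lowest total belonged to Sham/Air replicate 1. Its rank correlation with the other 23 libraries was 0.852 to 0.913, against 0.963 to 0.996 among those 23. Libraries of each group also differed in their trend along GC content. The rank correlation of relative levels with GC content was above 0 in 3 of 6 libraries of Sham/Air, Sham/Benzene and TAC/Air and in 4 of 6 of TAC/Benzene, called rising here, and below 0 in the others, called falling. TAC/Benzene replicate 4, at -0.015, had almost no trend, so the falling kind of TAC/Benzene holds 1 such library and 1 at -0.21. For some results that turn on Sham/Air replicate 1 or on this split, values without that library or within each kind of library are given. They are not given for every gene and comparison. Their absence does not mean that a result was alike in both kinds. Cardiac muscle markers were abundant in every library, with a summed level of 58225 to 83975 CPM over 14 genes. The sources used here do not give the strand setting of the counting, and exons of 4 of the genes overlap other annotated genes (GENCODE vM21). The overlap is 504 of 1855 exon bases for Bnip3, 478 of 5448 for Hif1a, 243 of 927 for Ankrd37 and 556 of 2889 for Ndrg1, and reads there could be shared or lost.

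The 10 genes spanned a wide range of abundance. Over all 24 libraries and per kilobase of transcript, Egln1 was at 180 ± 18.5 CPM per kilobase (SD) and Bnip3 at 156 ± 30.5, a gap within the spread of Bnip3, and Epas1 was at 85.8 ± 10.04. The order of the first pair depended on the group. Egln1 was at 196 ± 11.2 and Bnip3 at 129 ± 7.03 CPM per kilobase in Sham/Air, while in TAC/Benzene they were at 170.2 ± 3.61 and 200.2 ± 13.4, and in TAC/Air at 158 ± 4.19 and 160.2 ± 9.09, alike within their spread. Egln3 at 37.4 ± 5.03, Hif1a at 34.0 ± 10.8 and Bnip3l at 30.3 ± 2.95 came next, and these neighbours differed by less than their spread over libraries. Ndrg1 was at 16.1 ± 1.45, while Ankrd37 at 6.87 ± 1.28 and Adm at 6.78 ± 1.32 were alike within their spread. The length used was that of the longest annotated transcript of each gene. For Ndrg1 this was 4049 bases, against the 2889 exon bases given above, and on the shorter length its value would be higher. Hif3a was barely detected, at 0.160 ± 0.0924 CPM per kilobase and 2 to 20 reads per library, so its values below carry little weight. Of the HIF alpha subunits, Epas1 was therefore the most abundant mRNA in these samples, and Egln1 was more abundant than Egln3.

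**Figure D1:**
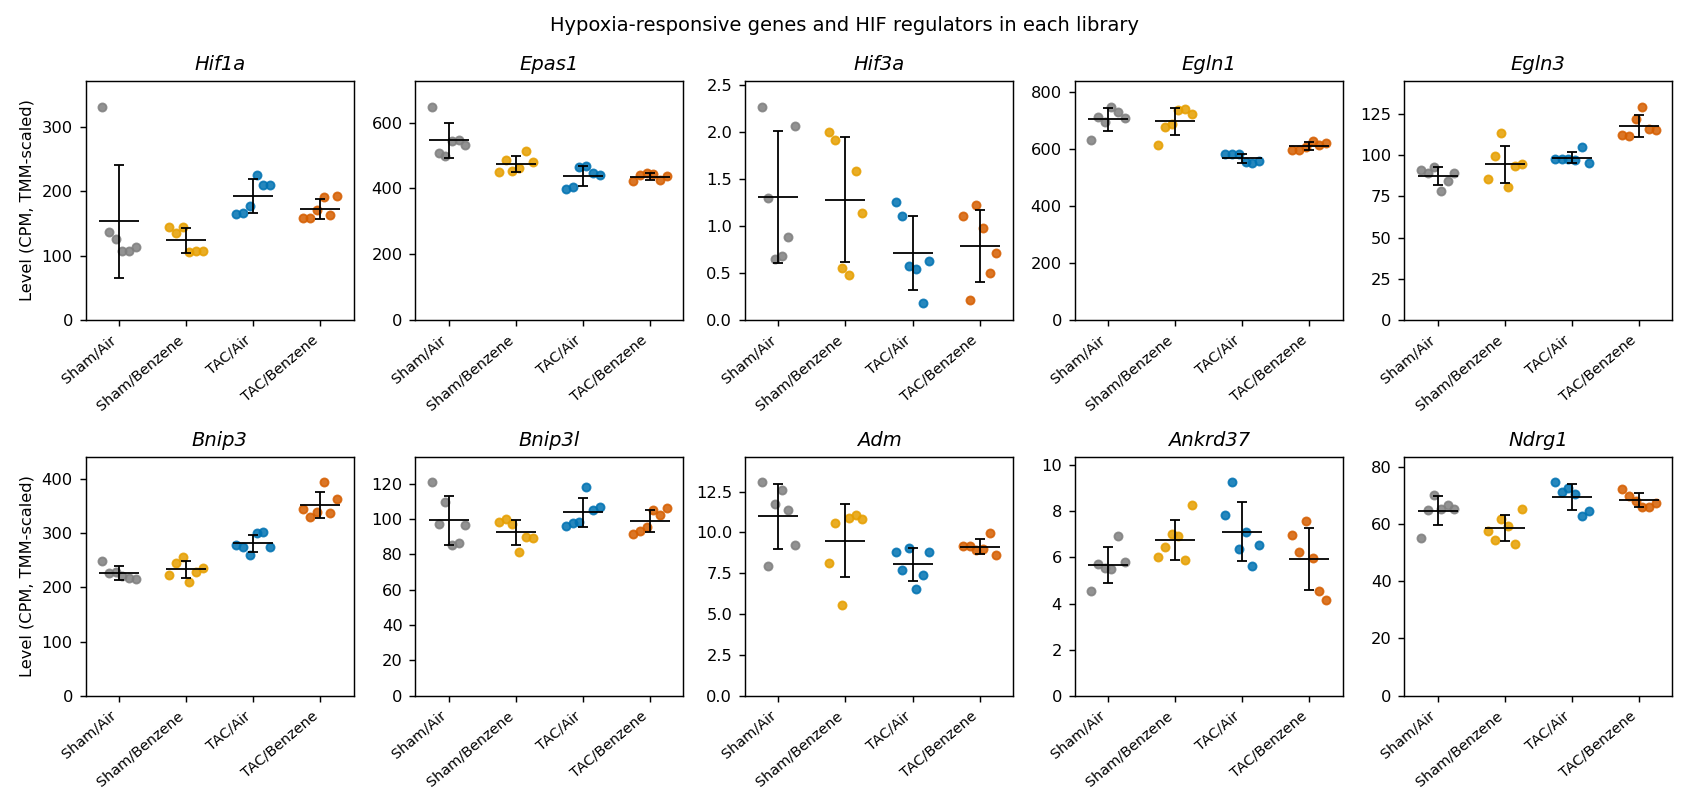
Level of each of the 10 genes in CPM (y axes, starting at 0) in every library of the 4 groups (x axes). Points are libraries, long horizontal lines are group means and bars are SD over 6 libraries. Bnip3 and Egln3 were highest in TAC/Benzene, Egln1 was lower after TAC, and 1 Sham/Air library stood at 331 CPM for Hif1a.

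In mice that breathed filtered air, the first question was how these genes responded to TAC. Bnip3, which encodes a mitochondrial protein that draws mitochondria into autophagy, rose 1.24-fold, while Egln1, the main oxygen-sensing hydroxylase, and Epas1, the HIF-2 alpha gene, fell to 0.806 and 0.800 of their sham levels. The vasodilator peptide gene Adm also fell. A total of 4 of the 10 genes were called, 1 higher and 3 lower, where 16.2% of all genes tested were called, 8.81% higher and 7.35% lower. The median log2 fold change of the 10 genes was 0.08, against -0.01 over all genes. TAC/Air and Sham/Air did not overlap for 2 genes that were higher, Bnip3 and Egln3, and 2 that were lower, Egln1 and Epas1, where 9.49% of all genes did not overlap, 5.78% higher and 3.71% lower.

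Among the alpha subunits, Epas1 had a lowest, median and highest level of 499, 538 and 648 CPM in Sham/Air and of 399.6, 444 and 467 CPM in TAC/Air. Every TAC/Air library was below every Sham/Air library. The log2 fold change was -0.32 ± 0.07 (adjusted p = 0.00207, edgeR), and without Sham/Air replicate 1, the highest library, it was -0.27 (adjusted p = 4.26e-04). A fit of these 2 groups alone left Epas1 just short of a call, at an adjusted p of 0.0502.

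Hif1a, the HIF-1 alpha gene, turned on a single library. Its lowest, median and highest levels were 107, 119 and 331 CPM in Sham/Air, with 165, 194 and 225 CPM for TAC/Air. The 331 CPM belonged to Sham/Air replicate 1, the library that stood apart, and the next highest Sham/Air library was at 137 CPM, below all 6 TAC/Air libraries. With all libraries the log2 fold change was 0.34 ± 0.20 and was not called (adjusted p = 0.295, edgeR), and DESeq2 gave an adjusted p of 0.343. Without that library Hif1a rose by 0.70 ± 0.10 on the log2 scale (adjusted p = 7.40e-06), and leaving out any other library of the 2 groups in turn gave 0.25 to 0.38 with no call. The limma-voom fit, which weights libraries by quality, gave 0.73 (adjusted p = 3.34e-07), and offsets for the GC and length trends gave 0.52 (adjusted p = 9.99e-06). Libraries whose levels rose with GC content gave 0.64 (adjusted p = 1.33e-11) on 107 to 113 CPM in Sham/Air and 165 to 178 CPM in TAC/Air, and the others, which include Sham/Air replicate 1, gave 0.13 (adjusted p = 0.840).

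**Figure D2:**
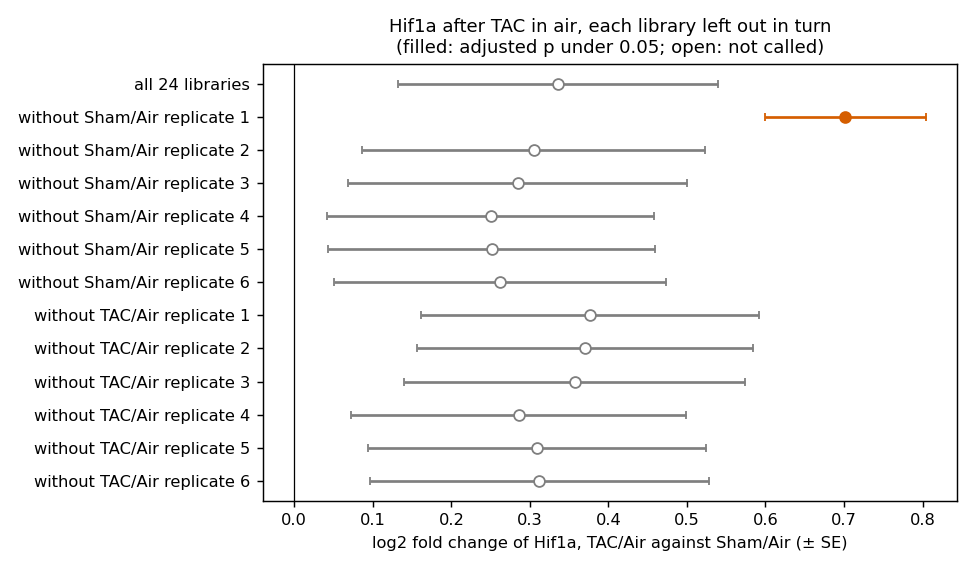
Log2 fold change of Hif1a for TAC/Air against Sham/Air (x axis, ± SE) in the fit of all 24 libraries and in fits that leave out 1 library each (y axis). Filled points passed an adjusted p of 0.05, which happened without Sham/Air replicate 1 alone, where the value moved from 0.34 to 0.70.

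Hif3a, whose product can restrain the other alpha subunits, was at 0.651, 1.10 and 2.27 CPM in Sham/Air, with 0.181, 0.597 and 1.26 CPM for TAC/Air. The groups overlapped, and the log2 fold change of -0.73 ± 0.45 was not called (adjusted p = 0.303, edgeR).

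Of the hydroxylases, Egln1 was at 633, 712 and 749.7 CPM in Sham/Air, with 551, 569.6 and 583 CPM for TAC/Air. All TAC/Air libraries lay below all Sham/Air libraries, and the spread within TAC/Air was small, at a coefficient of variation of 2.65%. Egln1 fell by 0.31 ± 0.06 on the log2 scale (adjusted p = 9.29e-04, edgeR), and it was called in each of 12 fits that left out 1 library. With offsets for GC content and length the value was -0.63 (adjusted p = 0.00343), more than 1.5 times as far from 0. Within the libraries rising with GC content it was -0.33 (adjusted p = 9.30e-07), and within those falling with it -0.29 (adjusted p = 0.264). Egln3 was at 78.3, 89.1 and 92.9 CPM in Sham/Air, with 95.4, 97.6 and 105 CPM for TAC/Air. All 6 TAC/Air libraries were above all Sham/Air libraries, but the log2 fold change of 0.17 ± 0.08 was not called (adjusted p = 0.147, edgeR). The limma-voom fit called it (0.20, adjusted p = 0.0127), as did the fit of the libraries rising with GC content (0.22, adjusted p = 0.00877) and the fit without Sham/Air replicate 1 and Sham/Benzene replicate 4 (0.18, adjusted p = 0.0472), while GC and length offsets gave 0.05.

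Among the response genes, Bnip3 was at 215, 224 and 249 CPM in Sham/Air, with 260.3, 276 and 301 CPM for TAC/Air. No TAC/Air library fell within the Sham/Air range. The log2 fold change was 0.31 ± 0.07 (adjusted p = 0.00225, edgeR), it was called in all 12 fits that left out 1 library, and it was 0.31 and 0.32 within the libraries rising and falling with GC content (adjusted p = 1.92e-05 and 0.236). Its relative Bnip3l, a mitophagy receptor of the same family, was at 85.3, 96.8 and 121 CPM in Sham/Air, with 96.2, 102 and 118 CPM for TAC/Air, at 0.07 ± 0.09 (adjusted p = 0.664). The groups overlapped for Bnip3l. Adm was at 7.92, 11.5 and 13.1 CPM in Sham/Air, with 6.55, 8.24 and 9.06 CPM for TAC/Air, with the lowest Sham/Air library inside the TAC/Air range. Adm fell by 0.43 ± 0.15 on the log2 scale (adjusted p = 0.0443, edgeR). The call was lost without Sham/Air replicate 1 (-0.40, adjusted p = 0.0521). It was kept in 3 of 12 fits that left out 1 library, those without Sham/Air replicate 2 or 6 or TAC/Air replicate 3. The value was -0.40 (adjusted p = 0.0268, edgeR) within the libraries rising with GC content and -0.48 (adjusted p = 0.374) within those falling. Ankrd37, an ankyrin-repeat protein gene, was at 4.55, 5.62 and 6.93 CPM and 5.61, 6.82 and 9.26 CPM, and its log2 fold change of 0.31 ± 0.15 was not called (adjusted p = 0.185). Ndrg1, a stress- and hypoxia-induced gene, was at 55.1, 65.3 and 70.1 CPM and 62.9, 70.8 and 74.5 CPM, and its 0.10 ± 0.07 was not called either (adjusted p = 0.399). Both genes had overlapping groups.

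Heart cell markers moved in the same comparison, where 8.81% of all genes were called higher and 7.35% lower. Cardiomyocyte markers were lower in 6 of 14 genes and summed to 58225 to 72064 CPM in TAC/Air against 75468 to 83869 CPM in Sham/Air, and fibroblast markers were higher in 7 of 12 genes and summed to 5599 to 5977 against 3758 to 4233 CPM. Endothelial marker sums overlapped, at 2008 to 2241 and 2085 to 2925 CPM. The part of these shifts in the changes of the 10 genes was not tested, and in bulk tissue fewer cells of a type and less RNA per cell cannot be told apart. Lung epithelial markers summed to 7.10 to 11.1 CPM in Sham/Air and to at most 2.47 CPM in each of the other groups.

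**Figure D3:**
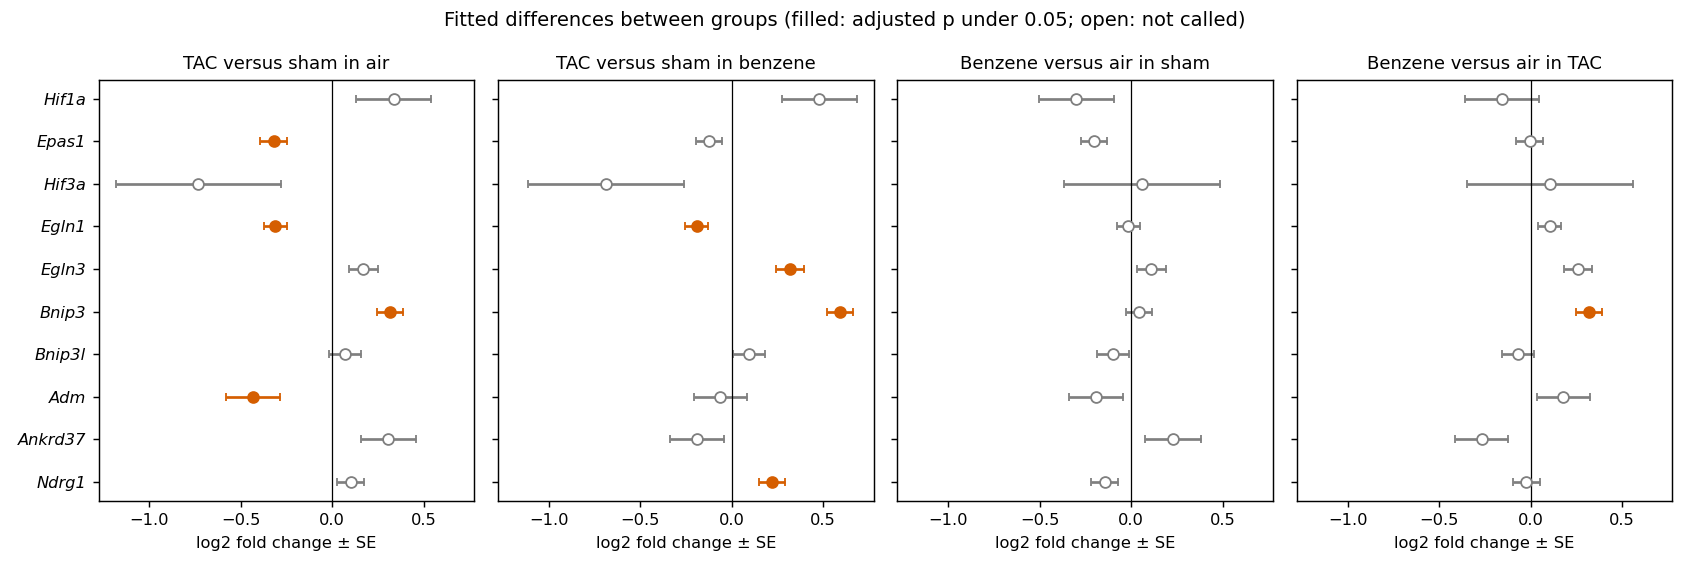
Log2 fold change ± SE (x axes) of each of the 10 genes (y axis) in the 4 comparisons between pairs of groups. Filled points passed an adjusted p of 0.05 in edgeR's test, which 4 genes did after TAC in air, 4 after TAC in benzene, 0 for benzene in sham and 1, Bnip3, for benzene in TAC.

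The second comparison set TAC against sham in mice that breathed benzene. Bnip3 rose 1.51-fold and Egln3 1.25-fold, Ndrg1 rose 1.17-fold and Egln1 fell to 0.876 of its sham level. Again 4 of the 10 genes were called, 3 higher and 1 lower, where 16.6% of all genes were called, 8.67% higher and 7.97% lower. The median log2 fold change of the 10 genes was 0.02, against -0.0045 over all genes. The groups did not overlap for 3 genes that were higher, Bnip3, Hif1a and Ndrg1, and 1 that was lower, Epas1, where 13.9% of all genes did not overlap, 7.62% higher and 6.31% lower.

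Hif1a was at 105, 122 and 144 CPM in Sham/Benzene and 159, 167 and 192 CPM in TAC/Benzene, so every TAC/Benzene library was above every Sham/Benzene library. The log2 fold change of 0.48 ± 0.20 was not called when all 24 libraries shared 1 estimate of the spread, which takes in Sham/Air replicate 1 (adjusted p = 0.120, edgeR). A fit of these 2 groups alone gave 0.48 ± 0.09 (adjusted p = 8.99e-04), and limma-voom gave 0.55 (adjusted p = 6.68e-06). Without Sham/Air replicate 1 and Sham/Benzene replicate 4 it was 0.44 (adjusted p = 0.00147). Libraries rising with GC content gave 0.61 (adjusted p = 5.89e-12, edgeR), and those falling with it gave 0.44 (adjusted p = 0.759). Offsets for GC content and length gave 0.52 (adjusted p = 9.24e-06, edgeR). Epas1 was at 450.0, 472 and 514 CPM in Sham/Benzene and 422, 439 and 446 CPM in TAC/Benzene. The groups did not overlap, but the log2 fold change of -0.12 ± 0.07 was not called (adjusted p = 0.286, edgeR). Hif3a overlapped between the groups, at 0.480, 1.37 and 2.00 CPM against 0.218, 0.845 and 1.22 CPM (-0.69 ± 0.43, adjusted p = 0.334).

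Egln1 was at 617, 706 and 741 CPM in Sham/Benzene and 597, 612 and 629 CPM in TAC/Benzene. The lowest Sham/Benzene library lay inside the TAC/Benzene range, and the others lay above it. Egln1 fell by 0.19 ± 0.06 on the log2 scale (adjusted p = 0.0393, edgeR). The call stayed in 2 of 12 fits that left out 1 library, those without Sham/Benzene replicate 1 or 3, and it was lost with GC and length offsets (-0.28, adjusted p = 0.200). The value was -0.29 (adjusted p = 1.82e-06) within the libraries rising with GC content and -0.08 (adjusted p = 0.958) within those falling with it. Egln3 was at 80.5, 93.8 and 113 CPM in Sham/Benzene and 111, 116 and 129 CPM in TAC/Benzene, and a single Sham/Benzene library reached into the TAC/Benzene range. Egln3 rose by 0.32 ± 0.08 (adjusted p = 0.00390, edgeR) and was called in all 12 fits that left out 1 library. It was 0.37 (adjusted p = 6.27e-06) within the libraries rising with GC content and 0.30 (adjusted p = 0.514) within those falling with it.

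Bnip3 was at 209.6, 233 and 256 CPM in Sham/Benzene and 329.8, 342 and 394 CPM in TAC/Benzene. Every TAC/Benzene library stood well above every Sham/Benzene library. The log2 fold change of 0.59 ± 0.07 (adjusted p = 5.55e-07, edgeR) ranged from 0.56 to 0.62 over 12 fits that left out 1 library, all called. It was also called within both kinds of library, at 0.58 (adjusted p = 7.13e-12) in those rising and 0.65 (adjusted p = 0.0352) in those falling with GC content. Ndrg1 was at 53.0, 58.5 and 65.3 CPM in Sham/Benzene and 65.9, 67.8 and 72.2 CPM in TAC/Benzene, with the lowest TAC/Benzene library just above the highest Sham/Benzene library. Ndrg1 rose by 0.22 ± 0.07 on the log2 scale (adjusted p = 0.0378, edgeR), and the call stayed in 3 of 12 fits that left out 1 library, those without Sham/Benzene replicate 3 or 6 or TAC/Benzene replicate 4. Adm was at 5.55, 10.7 and 11.1 CPM against 8.60, 9.08 and 9.95 CPM, and its difference of -0.06 ± 0.14 was not called (adjusted p = 0.864). Bnip3l (0.10 ± 0.09, adjusted p = 0.551) and Ankrd37 (-0.19 ± 0.15, adjusted p = 0.464) were not called either, and for all 3 genes the groups overlapped. In the same comparison 5 of 14 cardiomyocyte markers were lower and 6 of 12 fibroblast markers were higher. Over all genes 7.97% were called lower and 8.67% higher. Fibroblast sums were 5028 to 5282 CPM in TAC/Benzene and 3716 to 4043 CPM in Sham/Benzene. The part of these marker shifts in the changes of the 10 genes was not tested.

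The third comparison asked what benzene did in sham-operated hearts. None of the 10 genes was called by edgeR, DESeq2 or limma-voom, where 0.0221% of all genes were called by edgeR, and 1 gene, Epas1, was below an unadjusted p of 0.05. No gene of the 10 had groups without overlap, where 0.280% of all genes did. Epas1 went from a median of 538 to 472 CPM, at -0.20 ± 0.07 (adjusted p = 0.679, edgeR), and at -0.15 without Sham/Air replicate 1. Bnip3 (0.04 ± 0.07), Egln1 (-0.02 ± 0.06) and Egln3 (0.11 ± 0.08) were not called. The estimate for Hif1a of -0.30 ± 0.20 became 0.07 ± 0.10 without Sham/Air replicate 1, and neither value was called. Of the 27 tested genes of the HIF machinery and 56 other tested HIF targets, 0 were called by edgeR, 2 by DESeq2 and 0 by limma-voom. In edgeR's test 2 and 10 of them were below an unadjusted p of 0.05. The share of all genes below that unadjusted p is not given, nor the share called by DESeq2 in this comparison. Such counts, here and below, are therefore not read as an excess over other genes.

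The fourth comparison asked what benzene did in hearts under pressure overload. Bnip3 was the gene of the 10 that rose, 1.25-fold, in a comparison where 0.582% of all genes were called and 0.295% were called higher. Its levels of 260.3, 276 and 301 CPM in TAC/Air and 329.8, 342 and 394 CPM in TAC/Benzene did not overlap. The log2 fold change was 0.32 ± 0.07 (adjusted p = 0.0250, edgeR), and DESeq2 gave 0.32 (adjusted p = 1.11e-05). The call was near the threshold of edgeR's test. It was lost without the filter on low counts (adjusted p = 0.0782) and in 7 of 12 fits that left out 1 library, those without TAC/Air replicate 1, 2, 3 or 6 or TAC/Benzene replicate 1, 4 or 6, at adjusted p from 0.0514 to 0.0917 and log2 fold changes from 0.29 to 0.33. The size was alike in both kinds of library, 0.31 (adjusted p = 8.06e-05) in those rising and 0.37 (adjusted p = 1.00) in those falling with GC content.

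Egln3 went the same way, from 95.4, 97.6 and 105 CPM in TAC/Air to 111, 116 and 129 CPM in TAC/Benzene, again without overlap. Its log2 fold change of 0.26 ± 0.08 was not called by edgeR with all libraries (adjusted p = 0.194), but it was called by DESeq2 (adjusted p = 0.0182), by limma-voom (0.24, adjusted p = 0.00901), in the fit of these 2 groups alone (adjusted p = 0.0187) and without Sham/Air replicate 1 and Sham/Benzene replicate 4 (adjusted p = 0.0256). Egln1 was at 551, 569.6 and 583 CPM in TAC/Air and 597, 612 and 629 CPM in TAC/Benzene, also without overlap, and its 0.11 ± 0.06 was not called (adjusted p = 0.988, edgeR). Thus 3 of the 10 genes were higher in every TAC/Benzene library than in any TAC/Air library, where 2.70% of all genes did not overlap and 1.50% did so upward. The other 7 genes overlapped between the groups. Ankrd37 had the largest estimate among them, -0.27 ± 0.15 (adjusted p = 0.912), Adm was at 0.18 ± 0.15, Hif1a at -0.16 ± 0.20, Bnip3l at -0.07 ± 0.09, Ndrg1 at -0.02 ± 0.07 and Epas1 at -0.01 ± 0.07, and Hif3a, at 0.11 ± 0.45, could not be measured to a useful precision.

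Markers of other cell types differed between the same groups. Of 10 listed neutrophil genes 7 passed the filter on low counts, which a gene can pass through its highest group alone. All 7 were higher in TAC/Benzene than in TAC/Air, where 0.295% of all genes were called higher, and this count may lean on that filter. The sum over all 10 was 45.1 to 57.0 CPM against 11.4 to 17.1 CPM, with 12.8 to 18.1 CPM in Sham/Air and 8.88 to 24.1 CPM in Sham/Benzene. Fibroblast marker sums were lower in TAC/Benzene without overlap, at 5028 to 5282 CPM against 5599 to 5977 CPM. Macrophage markers were lower in 2 of 12 genes, where 0.582% of all genes were called either way, at 692 to 728 CPM against 794 to 888 CPM. The skeletal actin gene Acta1, named after its values were seen and a marker both of skeletal muscle and of the stressed ventricle, was at 4515 to 5030 CPM in TAC/Benzene and 2385 to 2646 CPM in TAC/Air, while the summed cardiomyocyte markers overlapped, at 61231 to 69259 and 58225 to 72064 CPM. The part of these differences in the rise of Bnip3 was not tested.

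Averaged over surgery, benzene changed none of the 10 genes by edgeR's test, where 0.192% of all genes were called, and 3 were below an unadjusted p of 0.05. Bnip3 was at 0.18 ± 0.05 (adjusted p = 0.185) and Egln3 at 0.19 ± 0.05 (adjusted p = 0.238), and both were called by DESeq2 (adjusted p = 0.00468 and 0.0358) and by limma-voom (adjusted p = 0.00620 and 0.0292). Bnip3 was also called by edgeR without Sham/Air replicate 1 (0.20, adjusted p = 0.0186). The surgery by benzene interaction, which asks whether TAC had another effect in benzene than in air, called 0 of the 10 genes by edgeR, DESeq2 and limma-voom, where edgeR called 0.169% of all genes, and 2 were below an unadjusted p of 0.05. These were Bnip3, at 0.28 ± 0.10 (unadjusted p = 0.00966, adjusted p = 0.709, edgeR), and Ankrd37, at -0.50 ± 0.21 (unadjusted p = 0.0266, adjusted p = 0.930, edgeR). Within the libraries rising with GC content the interaction of Bnip3 was 0.27 (adjusted p = 0.0473), and that of Ankrd37 was -0.50 (adjusted p = 0.350). A difference between the effects of TAC in air and in benzene was therefore not called for any of the 10 genes in the fit of all libraries.

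Egln3 and Bnip3 varied together across libraries. Over the 24 libraries the Pearson correlation of their log2 CPM was 0.90, and after removing group means it was 0.72. For Egln3, Bnip3 was the gene with the most alike pattern among tested genes of at least 1 CPM, followed by Fuca2 (r = 0.88) and Slc35f5 (r = 0.85). For Bnip3 itself the closest were Fhl1 (r = 0.96), Slc35f5 (r = 0.95) and Myot (r = 0.94), of which Fhl1 and Myot encode proteins of the muscle sarcomere. The points share group, library and depth, so these values are descriptions. In each of the 4 groups the means of Bnip3 and of Egln3 were higher in the libraries falling with GC content than in those rising with it. In Sham/Benzene they were at 241 and 225 CPM for Bnip3 and 99.3 and 89.4 CPM for Egln3. The part of this split in the correlation of the 2 genes was not tested.

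**Figure D4:**
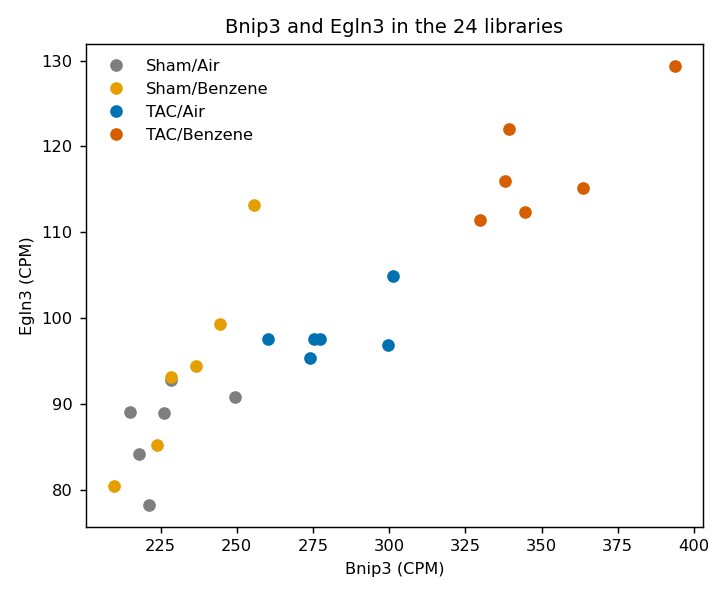
Level of Bnip3 (x axis, CPM) and of Egln3 (y axis, CPM) in each of the 24 libraries, coloured by group. The axes do not start at 0. The 6 TAC/Benzene libraries sit highest for Bnip3, at 329.8 to 394 CPM, and 1 Sham/Benzene library, at 256 CPM of Bnip3, reaches 113 CPM of Egln3.

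Some other pairs had much the same correlation within groups as over all libraries. Hif1a correlated with Bnip3l at 0.82 over all libraries and 0.81 within groups, and with Egln1 at -0.78 and -0.74. Other pairs changed sign, such as Bnip3 with Epas1, at -0.58 over all libraries and 0.29 within groups, and Egln1 with Epas1, at 0.58 and -0.19. In each of the 4 groups the mean of Hif1a and of Bnip3l was higher in the libraries falling with GC content than in those rising with it, for example at 141 and 106 CPM of Hif1a and 98.4 and 86.7 CPM of Bnip3l in Sham/Benzene. Egln1 was lower in the falling libraries of Sham/Air, Sham/Benzene and TAC/Air, at 661 and 735 CPM in Sham/Benzene, and higher there in TAC/Benzene, at 625 and 605 CPM. The genes most like Hif1a were Pls3, Mtpn and Dcn (r = 0.97 to 0.98), and Crat and Rpl3l were among those most like Egln1 (r = 0.94 and 0.92). For Epas1 the closest were Vwa8, Tmem150c and Fsd2 (r = 0.89 to 0.91), for Bnip3l Septin2, Kctd12b and Snx6 (r = 0.92 each), and for Adm, Ndrg1, Ankrd37 and Hif3a no gene was above 0.81.

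Within families, the balance of mRNAs per kilobase differed between groups. The level of Egln3 relative to Egln1 was 0.168 ± 0.018 in Sham/Air and 0.183 ± 0.026 in Sham/Benzene, and 0.234 ± 0.012 in TAC/Air and 0.260 ± 0.011 in TAC/Benzene (SD, n = 6), with no TAC library below any sham library. Bnip3 relative to Bnip3l was 4.28 ± 0.41, 4.68 ± 0.26, 5.04 ± 0.29 and 6.60 ± 0.33 in Sham/Air, Sham/Benzene, TAC/Air and TAC/Benzene. The 6 TAC/Benzene libraries, at 6.15 to 6.97, were above all others. Hif1a relative to Epas1 had medians of 0.271, 0.295, 0.516 and 0.448 in the same order, with Sham/Air replicate 1 at 0.597 above every other library and the rest of the sham libraries, at up to 0.374, below every TAC library. These ratios restate the levels above and were not tested.

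The other parts of the HIF system give the setting for the 10 genes. Of 27 tested genes of the HIF machinery, 2 rose and 1 fell after TAC in air, and 3 were higher after TAC in benzene, where 16.2% and 16.6% of all genes were called. Bhlhe40, a transcriptional repressor that HIF induces, rose from 73.3 ± 6.62 to 126 ± 1.79 CPM in air (0.78 ± 0.10, adjusted p = 2.82e-06, edgeR) and from 81.3 ± 17.2 to 114 ± 4.67 CPM in benzene (0.48 ± 0.10, adjusted p = 9.61e-04). The neuronal ARNT relative Arnt2 rose from 0.601 to 2.40 CPM in air and from 0.592 to 1.71 CPM in benzene. The log2 fold changes were 1.92 ± 0.36 (adjusted p = 3.69e-04, edgeR) and 1.44 ± 0.35 (adjusted p = 0.00431). The sham levels of Arnt2 were below those of Hif3a and rest on few reads, so the size of its rise carries little weight. Cited2, which competes with HIF alpha for its coactivators, fell in air by 0.72 ± 0.16 (adjusted p = 0.00199), and Bhlhe41 rose in benzene by 0.41 ± 0.14 (adjusted p = 0.0379). Values of 4 more machinery genes, named after their values were seen, are given as a description. In air Arnt was at -0.04 ± 0.08, the von Hippel-Lindau gene Vhl at 0.17 ± 0.10, the third hydroxylase gene Egln2 at -0.0029 ± 0.21 and the asparaginyl hydroxylase gene Hif1an at 0.07 ± 0.11.

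Among 61 other listed HIF targets 56 were tested, of which 10 rose and 2 fell after TAC in air (median log2 fold change 0.14), and 15 were higher and 3 lower in benzene (median 0.20), beside 16.2% and 16.6% of all genes called. Over the machinery and target lists together, leaving out 1 library gave 13 to 23 calls in air, where 15 were made with all libraries, and 17 to 21 in benzene, where 21 were made. The 23 came without Sham/Air replicate 1, so the counts in air and benzene are not ranked. Of the 56 tested targets alone, the same 9 were called in both, each in the same direction. These 9 are 75% of the targets called in air and 50% of the targets called in benzene. Among them Lox, a crosslinker of collagen, rose, with a mean of 9.33 ± 4.86 CPM for Sham/Air and of 67.6 ± 9.08 CPM for TAC/Air (2.95 ± 0.20, adjusted p = 1.74e-11, edgeR). Loxl2, a second crosslinker, rose by 1.66 ± 0.12 and Pfkp, a platelet-type phosphofructokinase of glycolysis, by 0.90 ± 0.07. In benzene the 3 genes rose by 3.27, 1.55 and 1.36. Values of 4 more targets, named after their values were seen, are given as a description. In air Vegfa, which drives vessel growth, was at 0.10 ± 0.09, the lactate dehydrogenase gene Ldha at 0.06 ± 0.09, the pyruvate dehydrogenase kinase gene Pdk1 at -0.08 ± 0.09 and the glucose transporter gene Slc2a1 at 0.54 ± 0.20 (adjusted p = 0.0730, edgeR). Lox and Loxl2 are also genes of fibroblasts and matrix, and fibroblast markers rose in the same comparisons. The part of the fibroblast shift was not tested.

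Pfkp was the gene of these lists that benzene changed in TAC. It was at 62.1 ± 3.91 CPM in Sham/Air, 59.0 ± 5.49 in Sham/Benzene, 116 ± 4.36 in TAC/Air and 152 ± 4.24 in TAC/Benzene, with no overlap between TAC/Air, at 111 to 123 CPM, and TAC/Benzene, at 146 to 159 CPM. The rise with benzene in TAC was 0.40 ± 0.07 (adjusted p = 0.00380, edgeR), and the interaction was 0.47 ± 0.10 (adjusted p = 0.0435). The count of calls for the interaction over the HIF machinery and target lists, 1 with all settings as above, was 0 without the filter on low counts and 0 with offsets for GC content and length. Bnip3 was likewise highest in TAC/Benzene and next highest in TAC/Air, with an interaction of 0.28 that was not called.

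**Figure D5:**
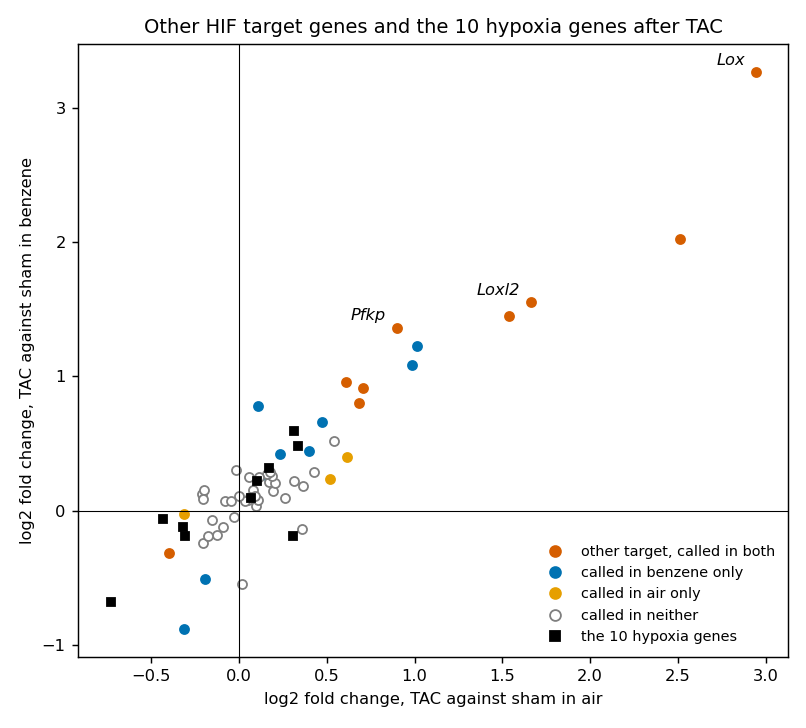
Log2 fold change after TAC in air (x axis) and in benzene (y axis) for 56 other HIF target genes (circles, coloured by the comparisons in which they were called) and for the 10 hypoxia genes (squares). The comparisons share no library. Lox, Loxl2 and Pfkp lie far to the upper right, while the 10 genes stay between -0.73 and 0.59 on both axes.

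Genes that act with single members were called in part, where 16.2% of all genes were called after TAC in air and 16.6% in benzene. Of 19 tested mitophagy genes, which act with Bnip3 and Bnip3l in clearing mitochondria, 1 was higher after TAC in air, and 1 was higher and 1 lower in benzene. Bcl2, whose protein BNIP3 binds, rose by 0.84 ± 0.14 in air and 1.14 ± 0.14 in benzene (adjusted p = 1.13e-04 and 1.20e-06, edgeR), and Pink1, a kinase of the other mitophagy route, fell in benzene by 0.48 ± 0.17 (adjusted p = 0.0471). Of 7 tested genes for receptors and processing of adrenomedullin, 2 were higher and 1 lower in air, and 3 were higher and 2 lower in benzene. Pam, which amidates the peptide, rose by 0.58 ± 0.12 and 0.84 ± 0.12, and Mme, a protease that degrades peptides, fell by 1.22 ± 0.20 and 0.94 ± 0.19. The receptor partner Ramp3 rose in air by 0.74 ± 0.18, and Ramp1 fell in benzene by 1.25 ± 0.24. Of 4 genes related to Ndrg1, Ndrg4 rose by 0.54 ± 0.13 in air and 0.51 ± 0.13 in benzene, Ndrg3 rose in air by 0.32 ± 0.09, and Sgk1, a kinase of NDRG1, fell in benzene by 0.48 ± 0.14 (adjusted p = 0.0185, edgeR).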

How the data were processed

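Gene counts were measured in 24 libraries of poly-A RNA, 4 groups of 6, sequenced as paired ends. The authors deposited 1 table of whole-number counts per gene symbol. Per the submitters' processing notes, build mm9 and the tools STAR, FastQC 0.11.9 and DESeq2 were used. The counting program, its annotation and its strand setting are each not given in the sources used here. Counts were tested with edgeR 4.0.16 in R 4.3.3 (quasi-likelihood, robust, TMM scaling, all 24 libraries in 1 fit, 6 contrasts) over 13571 genes kept by a minimum count of 10 and a total of 15. Genes left untested held 0.0747% of counts, and 5678 symbols had no count. Benjamini-Hochberg adjustment ran over all genes tested, and CPM use TMM-scaled library sizes (prior count 2 on the log2 scale). Each SE is the fold change divided by the root of F. The genes and lists were chosen with earlier results of these data known. All 10 genes are named, as are at most 4 called genes per pathway list and comparison with the smallest p, and for each of the 10 genes the 3 with the highest Pearson r. A few results that fall under this rule are not reported here. Alternatives were DESeq2 1.42.0, limma-voom with quality weights (limma 3.58.1), other size factors, other filters, the compared groups alone, a replicate block, offsets for GC content and length, and leaving out libraries. Fits by GC trend of the libraries were chosen after seeing the data. Of the fits, only that of edgeR for TAC against sham in air was tested on simulated counts. These had the same spread for all genes, no GC trend and no outlying library, so the simulation does not bear on results that turn on those features. Lengths and exon overlaps came from GENCODE vM21, used by symbol, and 98.5% of tested symbols matched.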

Additional observations from a re-analysis of the deposited data

Results flagged for a closer look

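In 40 sets of 6 libraries, 1 per gene and group, 4 had an end library far from the others relative to the range of its group, where chance gives about 1 in 20 sets. Of these, 3 were Sham/Air replicate 1, the library with the lowest total count. Hif1a was at 331.28 CPM there, and the next library of the group was at 136.58 CPM. Epas1 was at 648.35 CPM, with the next at 547.93 CPM. Ndrg1 was at 55.118 CPM, with the next at 64.782 CPM. The other was Egln3 at 104.89 CPM in TAC/Air replicate 5, with the next at 97.649 CPM.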

How the results depend on the processing

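Of 1660 values of the 10 genes under alternatives, 1572 kept their side of the threshold, 55 lost and 33 gained a call, and 0 reversed, and 67 of the 1572 changed sign with no call under either setting. Counts of called genes among the 10 moved as follows, and the causes were not tested. For TAC in air, 4 with all libraries, the count was 2 in the fit of the compared groups alone and 0 in the libraries falling with GC content. For TAC in benzene, also 4, it was 2 without the filter on low counts and 1 in the falling libraries. For benzene in TAC, 1 with all libraries, it was 2 under DESeq2, limma-voom, the compared groups alone, the libraries rising with GC content and the fit without Sham/Air replicate 1 and Sham/Benzene replicate 4, and 0 without the filter and in the falling libraries. That last fit called 5 genes for TAC in air and 5 for TAC in benzene. Averaged over surgery, 0 with all libraries, the count was 2 under DESeq2, limma-voom, the rising libraries and without both libraries, and 1 with offsets for GC content and length or with GC trend as a term. The interaction, otherwise 0, gave 1 in the rising libraries. Leaving out 1 library gave 3 to 4, 2 to 4, 0 to 0, 0 to 1, 0 to 1 and 0 to 0 calls in the 6 comparisons. Over all genes, 2193 were called for TAC in air, 3734 with limma-voom, 1300 from the compared groups alone and 435 in the falling libraries, and offsets for GC content and length gave 3745 and moved the share called higher from 54.5% to 42.8%. Benzene in TAC called 79 genes, 164 with DESeq2 and 554 with limma-voom. Depth limits Hif3a most, at 2 to 20 reads per library.

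No label says what a replicate number marks. The deviations of same-numbered libraries had a median correlation of -0.05 over 36 pairs, against 0.02 over 180 others. The same-numbered pairs ranged from -0.53 to 0.47. The numbers were not taken to pair the samples. The numbers did go with the GC trend within groups. Replicates 1 to 3 fell and 4 to 6 rose with GC content in both sham groups, replicates 1 to 3 rose and 4 to 6 fell in TAC/Air, and in TAC/Benzene replicates 4 and 6 were the ones below 0. This pattern ran opposite ways in the sham groups and TAC/Air, so same-numbered pairs could deviate together or apart. The median correlation therefore cannot tell whether the numbers mark a batch. With a replicate block, 2 of the 10 genes were called for TAC in benzene and 0 for benzene in TAC by edgeR, and 46 of all genes for benzene in TAC in place of 79.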
